A study of Mus musculus with 11 samples.

Results

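The Egr family examined here comprises the 4 zinc-finger transcription factors Egr1, Egr2, Egr3 and Egr4 and their corepressor Nab2. The members were chosen by gene symbol, with earlier results of these data known. All 5 were found among the 46202 rows of the expression table. The study measured RNA of the mouse hippocampus by sequencing after insulin was given through the nose. All animals were male C3-C57B1/6J mice, 2 to 3 months old, and isoflurane anaesthesia preceded removal of the brain in all of them. Insulin groups received 2.4 IU per nare and were sampled at 15 min (2 libraries, replicates 1 and 3), 1 h (3 libraries) and 6 h (3 libraries). Replicate 2 of the 15 min group was not analysed here. The titles of the 3 control libraries say saline, but the treatment field says untreated and the time field 0 min. They are called saline here. Since all controls carry the time 0 min, insulin itself and the time elapsed since dosing and handling cannot be told apart. Whether each library came from its own animal is not stated, so the spread that the p-values rest on may be technical.

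Egr genes are immediate early genes: stimulation of a neuron switches them on through existing transcription factors, before new protein is made. Signals through MAP kinases reach serum response factor with its Elk partners, and calcium and cAMP signals reach CREB, and both act on Egr promoters. The Egr proteins then bind GC-rich sites in other genes. In the hippocampus Egr1, also known as Zif268, is a standard marker of synaptic plasticity, and Egr3 is tied to memory. Nab1 and Nab2 bind Egr1, Egr2 and Egr3 and repress their targets, and Nab2 is itself an Egr target, which closes a feedback loop.

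Values are log2 signals per gene, normalized between libraries by the authors so that every library has the same distribution. The log base is not stated and was taken as 2, so every fold below rests on that reading. Signals are not known to be per length, so levels were compared between groups for 1 gene and not between genes. The tissue is bulk, so a change in the number of cells of a type and a change in RNA per cell cannot be told apart. The libraries held values for 32037 to 33653 rows, and sequencing depth is unknown. Markers of dentate granule neurons had summed linear signals of 8.97 to 9.91 with saline and 7.8 to 10.4 at 15 min. Their sums were lower than with saline at 1 h (7.37 to 8.63) and 6 h (7.86 to 8.69), without overlap. At 1 h 4 of the 5 had negative changes, with a median log2 change of -0.62, and 0 were called. Markers of pyramidal neurons summed to 4.11 to 5.57 over all libraries. The defining neurons of the labelled tissue were thus present in every library. Markers of neighbouring tissue varied more: the choroid plexus sum was 38.8 to 59.6 in the saline libraries, and its range was 27.4 to 130 (15 min), 2.72 to 86.6 (1 h) and 0.982 to 22.8 (6 h). The ribosomal row Rn18s-rs5 lay at 13.05 to 16 with saline. By library it was 9.67 and 10.49 (15 min), 10.18, 10.51 and 10.22 (1 h), and 12.19, 11.65 and 11.04 (6 h). Every insulin library was thus below saline, and those of 6 h fell between saline and the earlier times, without overlap. The means of the 4 Egr transcription factors, given below, were also nearest to saline at 6 h. Ependyma markers summed to 5.99 to 9.85 with saline, and to 2.68 to 4.05 (15 min), 3.06 to 3.35 (1 h) and 2.32 to 3.28 (6 h). Of these 5 markers only Dnah7b was called, with -3.63 at 15 min (limma adjusted p = 0.019) and -3.98 at 1 h (adjusted p = 0.0035). The median log2 change of the 5 was 0 at 15 min and -0.1 at 1 h. The part of all these differences in the results below was not tested.

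Each of the 4 Egr transcription factors had a higher mean at 15 min and at 1 h than with saline. For Egr1, Egr2 and Egr4 every library of both times lay above every saline library. The share of all rows that separate in this way was not counted, so the separation is a description only. At 15 min the means were 2.48-fold (Egr1), 3.06-fold (Egr2), 4.07-fold (Egr3) and 5.83-fold (Egr4) those of saline. No member passed the test over all genes at any time. In limma with Benjamini-Hochberg adjustment, 0 of 5 members were called at 15 min, where 0.239% of all rows tested were called, 0 of 5 at 1 h, where 0.877% were, and 0 of 5 at 6 h, where 0% were. At an unadjusted p under 0.05 there were 4 members at 15 min (Egr1, Egr2, Egr3 and Egr4), 3 at 1 h (Egr1, Egr2 and Egr4) and 1 at 6 h (Egr4), while 15.1%, 15.7% and 6.98% of all rows tested were under that p. The lowest adjusted p among the members was 0.14 (15 min), 0.1 (1 h) and 0.7 (6 h). Their median log2 change was 1.61, 1.28 and 0.44 in the same order, beside -0.14, -0.11 and -0.04 over all rows tested. Those overall shifts depend on the scaling, and after cyclic loess they were 0, 0 and -0.01. Because the members were chosen with earlier results of these data known, their counts and medians beside those of all rows are a description only.

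**Figure D1:**
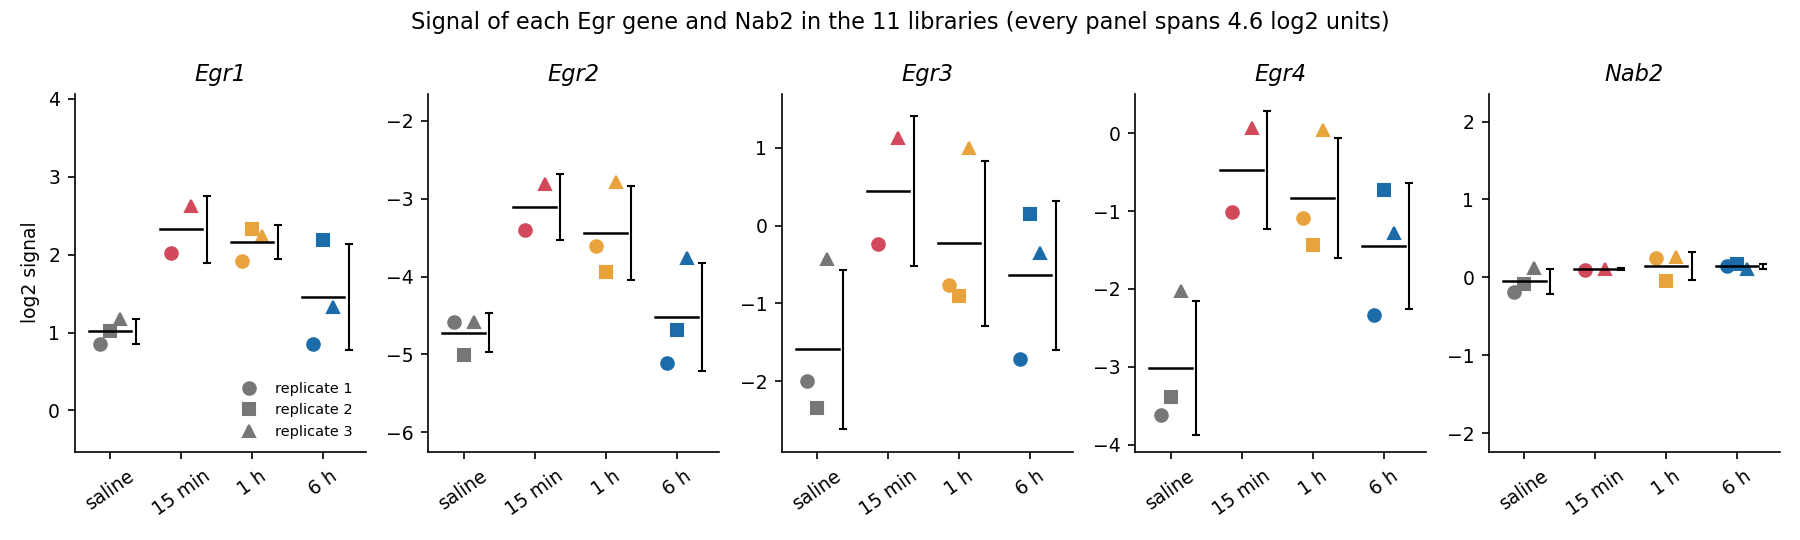
Log2 signal (vertical axis) of Egr1, Egr2, Egr3, Egr4 and Nab2 in the 11 libraries, by group (horizontal axis), with a symbol per library by replicate number, a horizontal line for the group mean and a vertical bar for 1 SD to either side. Every 15 min and 1 h library of Egr1, Egr2 and Egr4 lies above the highest saline library. Egr3 overlaps saline at 1 h and Nab2 stays within a narrow band. The share of all rows with such separation was not counted.

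Egr1 (chromosome 18, 34861207 to 34864956, plus strand, RefSeq annotation of GRCm38.p6) is the family member most used as a marker of neuronal activity. Its log2 signal was 0.86, 1.02 and 1.18 in the saline libraries, 2.02 and 2.63 at 15 min, 1.92, 2.33 and 2.24 at 1 h, and 0.85, 2.19 and 1.33 at 6 h. All 5 libraries of the first 2 times were above saline, and at 6 h replicate 2 was as high as the 1 h libraries while replicate 1 was just below the lowest saline library. The group means were 1.02 ± 0.16 (SD, n = 3) for saline, 2.33 ± 0.43 (n = 2) for 15 min, 2.16 ± 0.22 (n = 3) for 1 h and 1.46 ± 0.68 (n = 3) for 6 h. In limma the log2 change from saline was 1.31 at 15 min (SE 0.33, adjusted p = 0.14), 1.14 at 1 h (SE 0.29, adjusted p = 0.1) and 0.44 at 6 h (SE 0.29, adjusted p = 0.74). Ordered from high to low the means ran 15 min, 1 h, 6 h and saline. The 15 min and 1 h libraries overlapped, as did those of 6 h with each neighbour. Egr1 at 15 min and 1 h passed the threshold when 6 h replicate 2 was left out, with adjusted p values of 0.048 and 0.028 in limma and unchanged log2 changes. Over all 20 alternatives its adjusted p ran from 0.048 to 0.61 at 15 min and from 0.023 to 0.3 at 1 h.

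Egr2 (chromosome 10, 67534469 to 67542188, plus strand), also known as Krox20, is needed for myelination in the peripheral nerve and is an activity-induced gene in the forebrain. Its log2 signal was -4.58, -5.01 and -4.58 with saline, -3.40 and -2.81 at 15 min, -3.61, -3.94 and -2.78 at 1 h, and -5.11, -4.69 and -3.76 at 6 h. The 15 min and 1 h libraries were all above saline, and the 6 h libraries straddled it. The log2 change was 1.61 at 15 min (limma, SE 0.44, adjusted p = 0.16), 1.28 at 1 h (SE 0.39, adjusted p = 0.16) and 0.2 at 6 h (SE 0.39, adjusted p = 0.9). From high to low the means ran 15 min, 1 h, 6 h and saline, with overlap between 15 min and 1 h, between 1 h and 6 h, and between 6 h and saline. Egr2 had a low signal in this tissue, and an offset of 0.25 added on the linear scale lowered its change to 0.35 at 15 min and 0.26 at 1 h. The gene overlaps the lncRNA Gm32255 on the other strand over 1712 bp. The library kit keeps strand, but whether the counting used it is not given in the sources used here, so reads of these 2 genes may not be told apart.

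Egr3 (chromosome 14, 70077317 to 70082613, plus strand) had a log2 signal of -2, -2.34 and -0.43 with saline, -0.24 and 1.12 at 15 min, -0.76, -0.91 and 0.99 at 1 h, and -1.71, 0.15 and -0.35 at 6 h. The libraries were spread about as widely with saline as at 1 h, and in both groups replicate 3 stood well above the other two. Both 15 min libraries exceeded it, but only 1 of 3 at 1 h and 2 of 3 at 6 h did. The means were -1.59 ± 1.02, 0.44 ± 0.96, -0.23 ± 1.06 and -0.64 ± 0.96 in order of time (SD). The log2 change was 2.03 at 15 min (limma, SE 0.77, adjusted p = 0.26), 1.36 at 1 h (SE 0.69, adjusted p = 0.38) and 0.95 at 6 h (SE 0.69, adjusted p = 0.75). From high to low the means ran 15 min, 1 h, 6 h and saline, and every neighbour in that order overlapped.

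Egr4 (chromosome 6, 85511121 to 85513589, minus strand), a family member that lacks the Nab-binding region of its relatives, had the largest mean change of the 5 at each time. Its log2 signal was -3.62, -3.39 and -2.03 with saline, -1.01 and 0.07 at 15 min, -1.09, -1.43 and 0.04 at 1 h, and -2.33, -0.73 and -1.28 at 6 h. All 15 min and 1 h libraries and 2 of 3 at 6 h were above the highest saline library. The log2 change was 2.54 at 15 min (limma, SE 0.62, adjusted p = 0.14), 2.19 at 1 h (SE 0.56, 4.56-fold, adjusted p = 0.1) and 1.57 at 6 h (SE 0.56, 2.96-fold, adjusted p = 0.7). With the offset of 0.25 the Egr4 change was 1.36 at 15 min, where Egr3 had 1.43, and 1.11 at 1 h. Averaged over the 3 insulin times the change was 2.1 (SE 0.46, adjusted p = 0.094), in a comparison where 0 of 5 members were called, beside 0.452% of all rows (0.0905% higher and 0.362% lower). From high to low the means ran 15 min, 1 h, 6 h and saline, and each neighbouring pair overlapped.

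Nab2 (chromosome 10, 127660918 to 127666703, minus strand), the corepressor, moved little. Its log2 signal was -0.19, -0.09 and 0.12 with saline, 0.10 and 0.11 at 15 min, 0.25, -0.05 and 0.26 at 1 h, and 0.15, 0.17 and 0.11 at 6 h. The means were -0.05 ± 0.16, 0.11 ± 0.01, 0.15 ± 0.18 and 0.14 ± 0.03 (SD), and the 3 insulin means differed by less than the SD of the 1 h libraries. The log2 change was 0.16 at 15 min (limma, SE 0.12, adjusted p = 0.55), 0.21 at 1 h (SE 0.11, adjusted p = 0.39) and 0.19 at 6 h (SE 0.11, adjusted p = 0.72). Nab2 overlaps Stat6, on the other strand, over 70 bp. Its relative Nab1, also a corepressor of Egr proteins, had log2 changes of 0.24 at 15 min (adjusted p = 0.45), 0.2 at 1 h (adjusted p = 0.48) and -0.22 at 6 h (adjusted p = 0.72) in limma.

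The promoters of 3 members could be set side by side, to show which carry the elements that early genes use. Egr2 has 5 promoter entries in RefSeq (GRCm38.p6), Egr4 1 and Nab2 1, and the 250 bases before the start are printed 5′ to 3′ on the gene's strand. For Egr2 the entry at chr10:67537619-67537868 (plus strand) is shown, chosen after its motifs were seen as the 1 of 3 overlapping windows with no annotated exon base, for Egr4 chr6:85513590-85513839 and for Nab2 chr10:127666704-127666953 (both minus strand). Capitals mark a CArG box, the serum response factor element, or TGACG or its reverse complement CGTCA, the core of the CRE that CREB binds.
Egr2: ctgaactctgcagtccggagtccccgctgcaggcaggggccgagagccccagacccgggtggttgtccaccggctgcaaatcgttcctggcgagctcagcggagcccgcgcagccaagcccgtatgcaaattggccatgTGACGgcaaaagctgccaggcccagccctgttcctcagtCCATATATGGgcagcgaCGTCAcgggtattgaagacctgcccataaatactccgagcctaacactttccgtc
Egr4: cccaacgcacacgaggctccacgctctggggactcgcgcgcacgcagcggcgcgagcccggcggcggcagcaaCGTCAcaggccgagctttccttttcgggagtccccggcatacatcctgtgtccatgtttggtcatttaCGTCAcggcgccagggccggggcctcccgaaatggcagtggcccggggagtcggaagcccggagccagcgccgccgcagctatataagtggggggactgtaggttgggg
Nab2: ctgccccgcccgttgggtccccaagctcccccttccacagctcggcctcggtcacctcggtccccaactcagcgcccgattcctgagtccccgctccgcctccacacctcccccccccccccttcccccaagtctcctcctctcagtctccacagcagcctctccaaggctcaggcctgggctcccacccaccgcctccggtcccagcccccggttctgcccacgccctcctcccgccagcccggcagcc
Egr2 held 1 CArG box, 72 bases before the start, and 2 CRE cores, 111 and 55 bases before it. Egr4 held 2 CRE cores, 177 and 109 bases before the start, and no CArG box. Nab2 held neither. Of 32851 RefSeq promoters of the same length, 1.47% held a CArG box, 17.8% TGACG on either strand, 1.55% the full TGACGTCA (which contains that core), 12% the Ets core CCGGAA and 4.7% the Egr site GCGNGGGCG. None of the 3 printed windows held the full CRE, the Ets core or the Egr site. The picture for Egr2 depends on the entry: the 2 windows that overlap the printed one hold the same CArG box and CRE cores. A further window holds another CArG box and 3 matches to the Ets core but no CRE core. Of those 3 matches, 2 overlap each other on opposite strands (131 and 129 bases before the start). The remaining window holds none of these elements. A match describes letters in a window only.

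**Figure D2:**
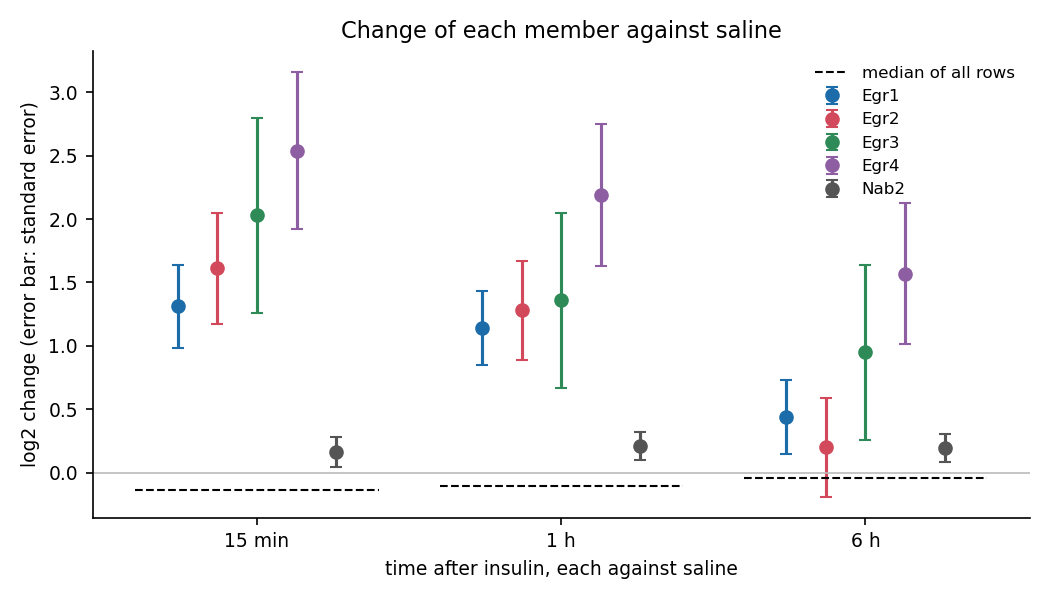
Log2 change from saline with its standard error (vertical axis) of the 5 members at each time after insulin (horizontal axis), with the median of all rows tested dashed. Egr4 has the largest change at each time on the deposited scale, up to 2.54 at 15 min. Each Egr gene has its own smallest change at 6 h: 0.44 (Egr1), 0.2 (Egr2), 0.95 (Egr3) and 1.57 (Egr4).

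The comparisons between insulin times share libraries with those above and ask whether the early signal had declined. At 1 h against 15 min, where 0% of rows were called, the log2 difference was -0.17 for Egr1, -0.33 for Egr2, -0.66 for Egr3, -0.36 for Egr4 and 0.05 for Nab2, all with an adjusted p of 1 in limma. At 6 h against 15 min, Egr2 was lower by a log2 difference of -1.41 (SE 0.44, adjusted p = 0.23) and Egr1 by -0.87 (SE 0.33, adjusted p = 0.28). In that comparison 0 of 5 members were called, beside 0.00723% of all rows. At 6 h against 1 h the differences were -1.08 for Egr2 (SE 0.39, adjusted p = 0.34) and -0.7 for Egr1 (SE 0.29, adjusted p = 0.41), with 0 of 5 members and 0.0108% of all rows called (0.00361% higher and 0.00722% lower). For Egr3 and Egr4 the log2 differences were -1.07 (limma, SE 0.77, adjusted p = 0.56) and -0.98 (SE 0.62, adjusted p = 0.5) at 6 h against 15 min, and -0.41 and -0.62 at 6 h against 1 h.

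Among the libraries of 1 group, the spread of Egr3 and Egr4 moved with markers of striatum and neocortex, the regions that adjoin the hippocampus in dissection. Interneuron markers, which the hippocampus itself also expresses, varied in a like way. All 13 striatum and neocortex markers had a value in every library, so none was at 0. The summed linear signal of the striatum markers was 8.39 to 11.2 in the saline libraries, then 15 to 17.8 (15 min), 8.13 to 25.2 (1 h) and 9.01 to 16.2 (6 h). That of the neocortex markers was 1.92 to 2.4, 1.87 to 2.86, 1.64 to 2.77 and 1.88 to 2.29 in the same order. None of the 13 passed the test against saline at any time, and they did not all move alike. Positive changes were seen in 6 of 7 striatum and 5 of 6 neocortex markers at 15 min. At 1 h these were 5 of 7 and 4 of 6, and at 6 h 5 of 7 and 5 of 6. The striatum marker Drd2 had log2 changes of -0.48, -0.18 and -0.37 in order of time. The neocortex marker Rorb had -0.16, -0.36 and -0.22. The 4 markers of thalamus, which also adjoins the hippocampus, were all below saline on average, with a median log2 change of -0.41 at 15 min and -0.47 at 1 h, and Rora fell at 1 h (-0.6, limma adjusted p = 0.032). Endothelial and pericyte markers had medians of -0.46 and -0.42 at 15 min, with none called. The part of thalamus and vessel markers in the results was not tested. The mean log2 signal of the 13 was -1.82, -2.03 and -1.24 in the saline libraries, -1.39 and -0.81 at 15 min, -1.84, -1.92 and -0.57 at 1 h, and -1.85, -1.14 and -1.13 at 6 h. The summed linear signal of 6 interneuron markers was 21.7, 20.6 and 32.8 with saline, 25.7 and 41.3 at 15 min, 24.9, 22.8 and 45.2 at 1 h, and 21, 44 and 37.1 at 6 h, and its part was not tested. The library with the highest striatum and neocortex marker mean was also the highest for Egr2 in 4 of 4 groups, for Egr3, Egr4 and Nab2 in 3 of 4, and for Egr1 in 2 of 4.

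A fit with this marker mean as a covariate, added after the data were seen, gave the slope within groups. For Egr3 the slope was 1.8 log2 units per unit of marker mean (limma, SE 0.19, adjusted p = 0.0086) and for Egr4 1.37 (SE 0.22, adjusted p = 0.046). It was 0.81 for Egr2 (adjusted p = 0.17), 0.39 for Egr1 (adjusted p = 0.5) and 0.13 for Nab2 (adjusted p = 0.53). Positive slopes were called in 0.426% of all rows. The Egr3 slope was called in all 12 further fits, 11 with 1 library left out and 1 after cyclic loess, whereas the Egr4 slope lost its call in 10 of the 12 (adjusted p up to 0.14) and kept it without 6 h replicate 2 and after cyclic loess. At equal marker mean the 15 min changes were smaller, 0.96 for Egr3 (SE 0.27, adjusted p = 0.19), 1.73 for Egr4 (SE 0.32, adjusted p = 0.081), 1.13 for Egr2 (adjusted p = 0.19) and 1.08 for Egr1 (adjusted p = 0.21). At 1 h Egr4 then rose by 1.85 (SE 0.26) and passed the threshold (limma, adjusted p = 0.016), and Egr3 was 0.92 higher (SE 0.23, adjusted p = 0.084). Over all 20 alternatives the adjusted p of Egr4 ran from 0.081 to 0.59 at 15 min and from 0.016 to 0.31 at 1 h, and that of Egr3 from 0.16 to 0.81 and from 0.084 to 0.67.

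**Figure D3:**
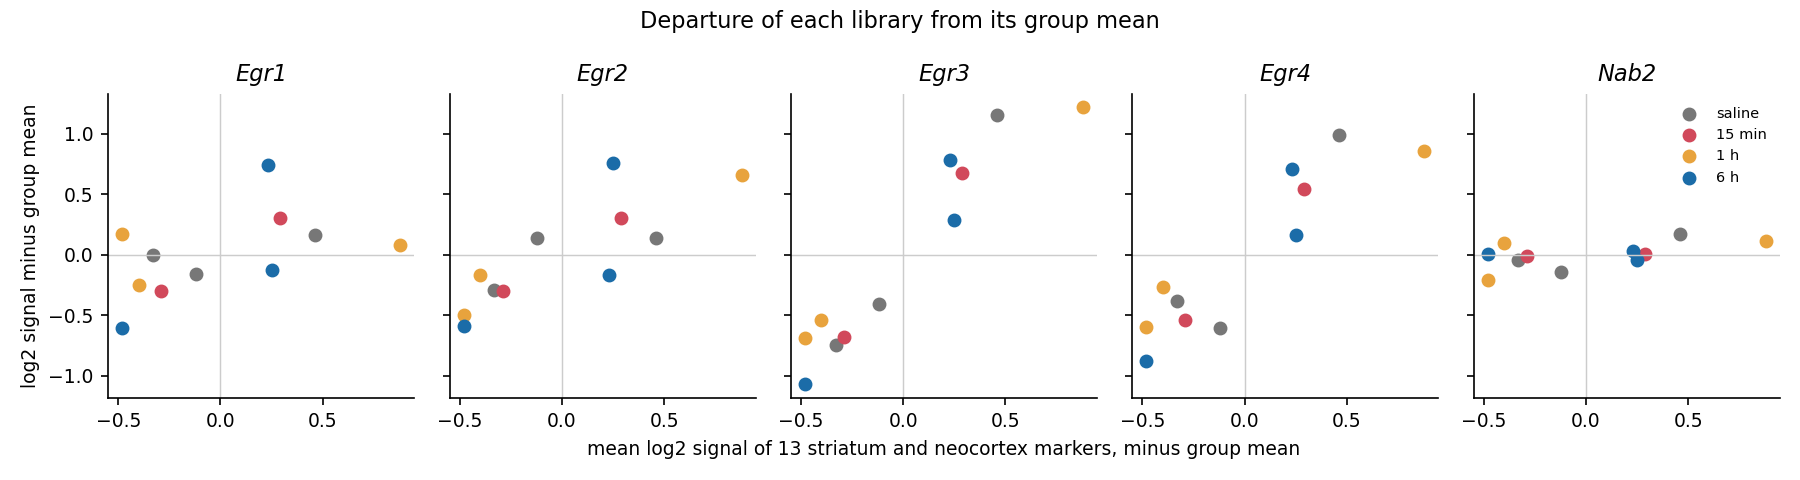
Departure of each library from its group mean in log2 signal (vertical axis) against its departure in the mean of the 13 striatum and neocortex markers (horizontal axis), for each member, coloured by group. Egr3 and Egr4 increase along the axis, with slopes of 1.8 and 1.37, and Nab2 is flat at 0.13.

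**Figure D4:**
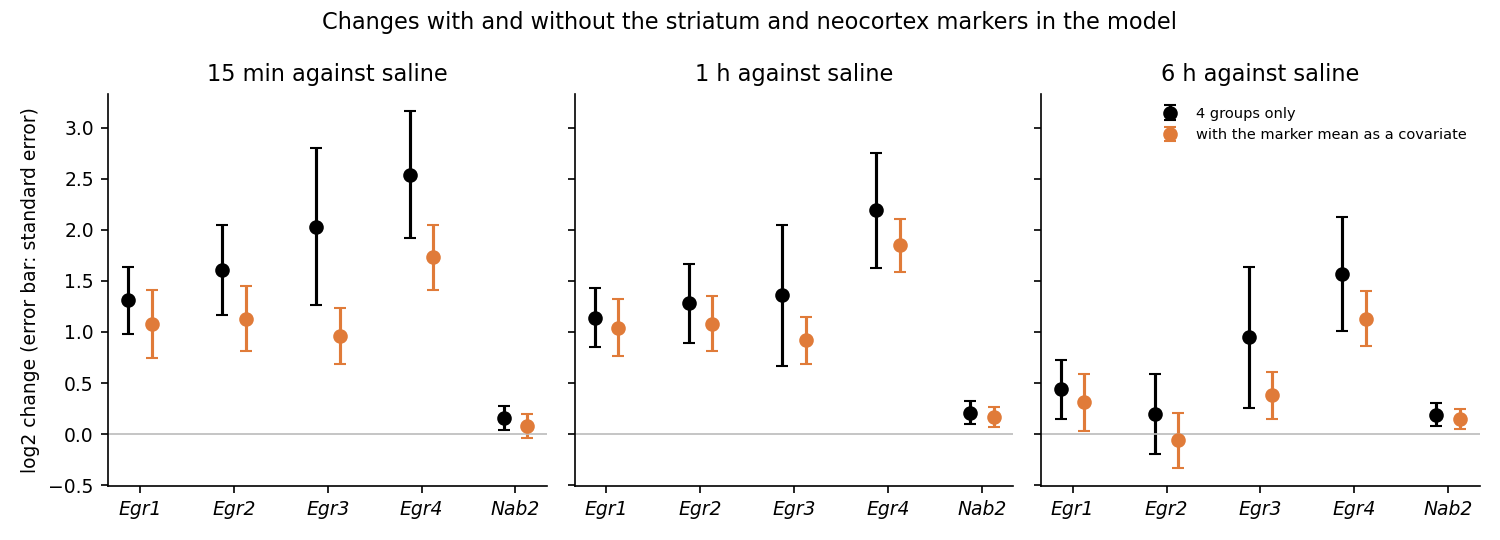
Log2 change from saline with its standard error (vertical axis) of each member (horizontal axis), without the marker mean in the model (black) and with it (orange), in 1 panel per time. The Egr3 change at 15 min goes from 2.03 to 0.96 and the Egr4 change from 2.54 to 1.73, while Egr1 goes from 1.31 to 1.08.

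Of the other activity-induced early genes, 41 were tested. The list was chosen with earlier results of these data known, so its counts beside those of all rows are a description only. At 15 min 6 of them rose and none fell, beside 0.0434% of all rows called higher: Fos, Fosb, Nr4a1, Klf2, Klf4 and Cyr61. Fos, the partner of Jun in AP-1, was 1, 0.98 and 0.9 with saline, 2.64 and 2.55 at 15 min, 2.46, 2.47 and 2.02 at 1 h, and 0.9, 1.18 and 1.17 at 6 h. Its libraries lay closer together within groups than those of Egr3 and Egr4. Fos rose by a log2 change of 1.64 (3.11-fold, limma adjusted p = 0.0034) at 15 min, and the zinc-finger factors Klf4 and Klf2 by 1.91 (adjusted p = 0.0034) and 2.2 (adjusted p = 0.0084). At 1 h Fos, Fosb, Nr4a1, Nr4a2, Klf2 and Klf4 rose, again 6 of 41 with none lower, beside 0.13% of all rows called higher. Fos and Klf4 were also the 2 genes called at 6 h against 15 min, with log2 differences of -1.52 and -1.43 (limma adjusted p = 0.019 and 0.034). Those calls at 6 h were lost in 9 of 20 alternatives for Fos and 12 of 20 for Klf4. Against saline, Fos and Klf4 were called at 1 h in all 20 alternatives, and at 15 min Fos in all 20 and Klf4 in 19. At 15 min Nr4a1 lost its call in 15 of 20, Fosb in 11, Cyr61 in 5 and Klf2 in 2. At 1 h Nr4a1 lost it in 7, Nr4a2 in 5 and Fosb in 3. The count of 6 at 15 min was 3 without saline replicate 1, 3 without saline replicate 2, 2 without 15 min replicate 1, 3 without 15 min replicate 3 and 1 with only the 2 groups fitted. The count at 1 h was 3 without saline replicate 1, 1 h replicate 1 or 1 h replicate 2. The median log2 change of the 41 was 0.37 (15 min), 0.3 (1 h) and 0.12 (6 h), and 36 were positive at 15 min, where 31.3% of all rows were. Arc and Npas4, early genes of excited neurons, had changes of 0.63 (adjusted p = 0.34) and 0.77 (adjusted p = 0.25) at 15 min in limma.

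**Figure D5:**
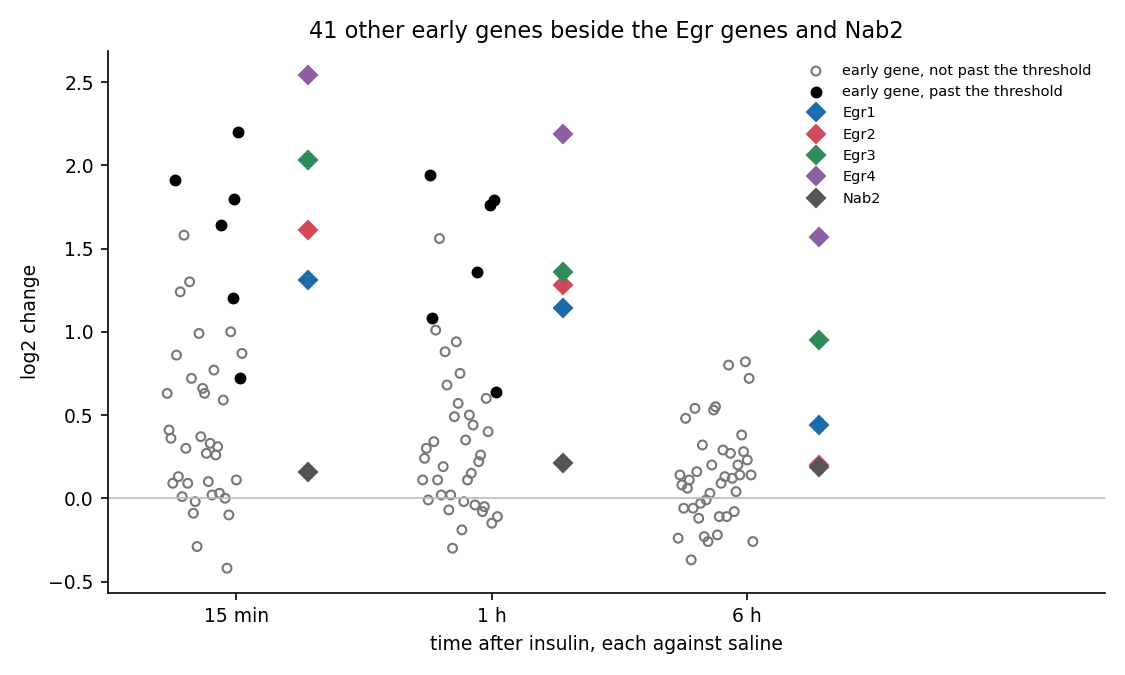
Log2 change from saline (vertical axis) of the 41 other early genes (circles, filled where past the threshold) and of the 5 members (diamonds) at each time after insulin (horizontal axis), without error bars. Filled circles number 6 (15 min), 6 (1 h) and 0 (6 h), and the Egr4 diamond, at 2.54 and 2.19, is above every circle at the first 2 times without passing the threshold.

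Of 27 genes of the MAP kinase, serum response factor and CREB routes that act on Egr promoters, 0 were called at any time against saline in limma, and 1 (15 min), 3 (1 h) and 0 (6 h) had an unadjusted p under 0.05, where 15.1%, 15.7% and 6.98% of all rows did. That share is the background for the counts at unadjusted p of the next 3 lists too. For the calls of all these lists the background is 0.239% (15 min), 0.877% (1 h) and 0% (6 h) of all rows tested. With so few rows called, 0 calls in lists this short is near the overall share. For the medians the background is -0.14, -0.11 and -0.04 in the same order. The median log2 change of the 27 genes was -0.02 at 15 min and -0.08 at 1 h. Srf itself had changes of 0.28 at 15 min (limma adjusted p = 0.3) and 0.28 at 1 h (adjusted p = 0.23). Of 15 genes of the Nab corepressor and its chromatin remodelling partners 0 were called, with medians of -0.01 at both early times and 0, 1 and 3 genes at an unadjusted p under 0.05 in limma in order of time. Chd3, a remodelling ATPase, had 0.2 at 15 min (limma adjusted p = 0.38) and 0.26 at 1 h (adjusted p = 0.21). Of 28 genes that the literature reports as Egr targets 0 were called, with medians of 0.1, 0.1 and 0.07 in order of time and 6, 4 and 4 genes at an unadjusted p under 0.05 in limma. The nearest to the threshold was Cdkn1a, which encodes the cell cycle inhibitor p21, with 1.14 at 1 h (SE 0.22, limma adjusted p = 0.052), and it passed in 4 of 20 alternatives. Id2, an inhibitor of basic helix-loop-helix factors, had -0.5 at 1 h (SE 0.13, adjusted p = 0.1). Of 7 zinc-finger relatives that bind GC-rich boxes 0 were called, and 3 had an unadjusted p under 0.05 at each time in limma. Klf9, Klf13 and Klf16 had changes of 0.33, 0.81 and 0.84 at 15 min (limma adjusted p = 0.13, 0.21 and 0.24).

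Profiles over the 11 libraries, each centred on its own saline mean, were compared by their root-mean-square difference in log2 units. The 16532 rows compared had a value in every library, with predicted and clone-named symbols passed over. Within the family Egr1 and Egr2 were closest, at 0.52, followed by Egr3 and Egr4 at 0.62, and Egr4 and Nab2 were farthest apart, at 1.72. The rows nearest to Egr1 were Rin3 (0.32), Fkbp5 (0.33) and Hspg2 (0.34). Fkbp5 is a glucocorticoid-induced co-chaperone. Those nearest to Egr2 were Fosl2 (0.31), Pdk4 (0.36) and Nr4a3 (0.44), of which Fosl2 and Nr4a3 are early genes. Egr3 was nearest to Adamts14 (0.5), Fosl2 (0.55) and Zbtb16 (0.59), and Egr4 to Tmem102 (0.59), Egr3 (0.62) and Tmppe (0.65). Nab2, which varied little, was nearest to other rows that varied little, among them Eva1a at 0.07.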

How the data were processed

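RNA of mouse hippocampus was sequenced in 11 libraries, after extraction with a column kit and a stranded total RNA library kit, per the labels' protocols. The authors deposited log2 signals per gene symbol (the log base is a reading of the values, not stated), quantile-normalized as the values show: every library has a minimum of -13.64, a median of -3.20 and a maximum of 16.00. Partek 6.7, bcl2fastq and GRCm38 are named, per the submitters' processing notes; which aligner, counter and strand setting were used is not given in the sources used here. Reads cannot be recovered from these values, so depth is unknown.

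Tests used limma 3.58.1 in R 4.3.3: 1 model of 4 groups over 11 libraries with 7 contrasts, a mean-variance trend, two-sided p and Benjamini-Hochberg adjustment at 0.05 over all rows tested. Rows in the lowest 40% by mean signal were dropped; 27721 remained, of which 1950 had a missing value in some library. All 5 members passed this filter. The fit was also run on simulated data with independent noise in each row, so variation shared between rows of a library was not covered. The outcome is not reported here. Alternatives are given in the closing section.

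The members and gene lists were chosen with earlier results of these data known. Named genes are the members, the list genes past the threshold, the 4 with the smallest p per list at 15 min and 1 h (not every one is reported), Fos, Arc, Npas4 and Nab1, and the 3 nearest profiles of each member. Positions and promoter sequences are from RefSeq (GRCm38.p6), which gave promoter entries for 3 of 5 members.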

Additional observations from a re-analysis of the deposited data

How the results depend on the processing

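The changes of the 5 members were recomputed under cyclic loess, equal library medians, no filter, the lowest 60% of rows left out, an offset of 0.25, only the 2 groups compared, no mean-variance trend, the replicate block, each library left out, and, chosen after seeing the data, the neighbouring-region covariate. Of 695 values 675 kept their direction and their side of the threshold, 5 newly passed it and 15 reversed. The 5 were Egr1 at 1 h with only the 2 groups (1.14, limma adjusted p = 0.023), Egr1 at 15 min and 1 h without 6 h replicate 2, and Egr4 at 1 h (1.85) and over the mean of the 3 times (1.57) with the covariate. Reversed values without a library left out were small: Nab2 at 6 h against 15 min was -0.03 after cyclic loess and -0.1 with equal medians, and with the covariate Egr2 at 6 h was -0.06, Egr4 at 1 h against 15 min 0.11 and Arc at 1 h -0.05. The cause was not tested.

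With 1 library left out, values that reversed ran as follows. At 1 h against 15 min Egr1 ran from -0.47 to 0.14, Egr3 from -1.34 to 0.02, Egr4 from -0.9 to 0.18 and Nab2 from -0.01 to 0.15. At 6 h against 1 h Egr3 ran from -0.8 to 0.2 and Nab2 from -0.12 to 0.04. Against saline, Egr2 at 6 h ran from -0.18 to 0.5, Arc at 1 h from -0.15 to 0.28, Npas4 at 6 h from -0.15 to 0.41 and Nr4a2 at 6 h from -0.12 to 0.19. Genes called ran from 5 (without 15 min replicate 3) to 103 (without 6 h replicate 2) at 15 min, from 42 (without 1 h replicate 1) to 477 (without 6 h replicate 2) at 1 h, from 27 (without saline replicate 1) to 152 (without 6 h replicate 2) for the mean, from 0 to 3 at 6 h against 15 min and from 0 to 4 at 6 h against 1 h. Members called ran from 0 to 1 at 15 min and at 1 h, the 1 being Egr1 without 6 h replicate 2. Where an arm kept 1 library, it was assumed to vary like the other groups.

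The count of genes called at 15 min (66) was 37 after cyclic loess, 102 with the offset, 1 with only the 2 groups, 114 without the trend and 32 with the covariate. At 1 h (243) it was 138 with only the 2 groups and 460 with the covariate. For the mean of the times (125) it was 202 with the lowest 60% left out, 274 with the offset and 212 with the covariate. At 6 h against 15 min (2) it was 0 with only the 2 groups, 6 without the trend and 1 with the covariate, and at 6 h against 1 h (3) it was 0 and 5 with only the 2 groups and the covariate. Members called became 1 at 1 h with only the 2 groups or the covariate and 1 for the mean with the covariate. The share of calls that were higher at 15 min was 18.2%, 37.8% after cyclic loess and 43.5% with equal medians; at 1 h it was 14.8%, 32% and 46.8%. A fit of only the 2 groups cannot be made for the mean of the 3 times, which uses all groups.

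The replicate block gave 38 genes at 15 min, 159 at 1 h, 60 for the mean and 0 for both 6 h comparisons between times. It changed no member's call. Whether replicate numbers pair the libraries is not settled by the values. Correlations of deviations ran from -0.06 to 0.24 in 15 same-numbered pairs, with 5 over 0.1. In 30 pairs with different numbers they ran from -0.25 to 0.25, also with 5 over 0.1. Of the 11 libraries, 6 correlated best with their own number.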
